A study of Mus musculus with 24 samples.

Results

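The measurement described here is what recombinant IL-33 changed in alveolar macrophages that also received recombinant IL-13 and IL-17A. It compares 3 libraries of cells given rIL-33, rIL-13 and rIL-17A with 3 libraries of cells given rIL-13 and rIL-17A, which is 6 of the 24 libraries of the series, over the 13215 of 17017 genes that reached 1 TPM in at least 3 of the 24 libraries. TPM is a share of transcripts scaled to the same total in every library, here with the whole gene span as the length, so a level compares libraries for 1 gene and never 1 gene with another. All cells were primary alveolar macrophages of wild-type BALB/cJ mice collected 20 h after stimulation. The other 6 groups, of 3 libraries each, were left untreated or received rIL-13, rIL-17A, rIL-33, rIL-33 with rIL-17A, or rIL-33 with rIL-13. The labels state no dose, and nothing in them ties the 3 libraries of a group to different mice or cultures. A p-value here therefore reflects only library-to-library spread, part or all of which may be technical. Unless said otherwise, that spread was estimated over all 24 libraries and not from the 6 compared alone. The series title concerns fibroblast factors that activate macrophages; in these libraries the cytokines were given to the macrophages themselves.

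IL-33 is an alarmin that epithelial and stromal cells release on damage; it binds the receptor ST2 (gene Il1rl1) paired with the IL-1 receptor accessory protein and signals through MyD88 to NF-kB and MAP kinases. IL-13 binds the IL-4 receptor alpha chain with IL-13 receptor alpha 1, activates STAT6 and drives the alternative activation programme of macrophages, with chitinase-like proteins, CISH and SOCS1 among its well-known targets. IL-17A acts through the receptor chains IL-17RA and IL-17RC and is best known for inducing neutrophil chemokines in stromal and epithelial cells.

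Libraries of the compared groups were of similar depth: 10.30 to 11.63 M recovered reads with all 3 cytokines and 10.60 to 11.42 M with IL-13 plus IL-17A, and the 24 libraries ran from 9.11 to 12.86 M. One of the 6 stood apart, replicate 2 of the cells given all 3 cytokines. Its score on the second principal component of all 24 libraries was 43.3, against -10.01 and -5.312 for the other two of its group, its mitochondrial read share was 1.084% against 0.901% to 0.935%, and the mean gene span behind its TPM was 9124 bases against 10177 to 10458 bases in the other 5. List counts are therefore given with and without it where it changes them. Of the defining alveolar macrophage markers, Itgax stood at 2275 ± 35.5 TPM, Siglecf at 298 ± 12 TPM, Pparg at 22.1 ± 0.325 TPM and Fabp4 at 406 ± 8.6 TPM with IL-13 plus IL-17A (mean ± SD, n = 3), while Marco was at 0.624 ± 0.154 TPM. None of Itgax, Siglecf, Pparg, Fabp4, Plet1 or Car4 passed the test with IL-33 added, while Chil3, Krt79 and Ear2, the other tested markers, fell.

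Adding IL-33 lowered more genes than it raised. With limma-trend on log2(TPM + 1) and Benjamini-Hochberg adjustment over the 13215 genes, 469 genes (3.55%) passed an adjusted p of 0.05, 152 higher (1.15%) and 317 lower (2.4%). These shares over all tested genes are the background of every list count below. Among the lower genes 28 fell at least 2-fold and 87 at least 1.5-fold, against 4 and 15 among the higher ones, and the median log2 fold change was -0.41 for the lower and 0.25 for the higher genes. In all 469 genes every library of 1 group lay beyond every library of the other, which held for 17.7% of all genes tested. Separate libraries in a called gene named below therefore add nothing to its call. Dividing TPM by median-ratio size factors, which removes the small overall shift (the median of all genes was -0.05), gave 244 higher and 330 lower genes. Without replicate 2 of all 3 cytokines the counts were 120 higher and 191 lower (311 genes), without replicate 1, 2 or 3 of IL-13 plus IL-17A the totals were 294, 308 and 286, and a fit of the 6 libraries alone, with only their own spread to go by, gave 6 higher and 43 lower. In such bulk samples fewer cells of a type or state and less RNA per cell cannot be told apart.

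The largest decrease was in Cxcl3, a chemokine that draws neutrophils through CXCR2. Cxcl3 (ENSMUSG00000029379, chr5:90786103-90789600, plus strand of mm10) read 151, 154 and 188 TPM in the 3 libraries with IL-13 plus IL-17A and 24.3, 23.5 and 21.5 TPM once IL-33 was added. The 2 groups lay far apart, with 85.9% less on average, and the log2 fold change was -2.77 ± 0.21 SE, adjusted p = 2.0e-07. Untreated cells held 5.83 ± 1.46 TPM (n = 3), a mean below every library of both groups. Cxcl1 and Cxcl2, which encode chemokines for the same receptor, were lower in every library and did not pass the test. Cxcl2 read 88.3, 97.7 and 94.3 TPM and then 58.2, 55.5 and 48.2 TPM (adjusted p = 0.083), and Cxcl1 read 36, 41.4 and 39 TPM and then 21.4, 26.9 and 20.1 TPM (adjusted p = 0.11). Of the 5 CXC chemokine genes tested Cxcl3 alone passed, with a list median of -0.75 against -0.05 over all genes, and voom on the recovered reads called 3.

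To show the region in front of the genes that moved most, the 250 bases before the RefSeq start site (GRCm38.p6) are printed for the 2 genes with the largest decrease and the 2 with the largest increase that have an entry, Cxcl3, H2-M2, Aebp1 and Wfdc17. Capitals mark matches, on either strand, to GGGNNTTCC or GGGNNNTTCC (9-base and 10-base forms of an NF-kB motif, which can overlap), TGANTCA (AP-1), or TTC and GAA set 4 bases apart (STAT6). The 10-base form was added after the Cxcl3 sequence had been seen.
Cxcl3, chr5:90785851-90786100, plus strand: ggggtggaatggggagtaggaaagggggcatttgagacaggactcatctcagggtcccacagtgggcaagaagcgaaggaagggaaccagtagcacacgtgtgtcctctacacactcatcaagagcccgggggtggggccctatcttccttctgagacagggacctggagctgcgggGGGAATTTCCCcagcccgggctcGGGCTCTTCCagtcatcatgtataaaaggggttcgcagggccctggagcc
H2-M2, chr17:37483555-37483804, minus strand: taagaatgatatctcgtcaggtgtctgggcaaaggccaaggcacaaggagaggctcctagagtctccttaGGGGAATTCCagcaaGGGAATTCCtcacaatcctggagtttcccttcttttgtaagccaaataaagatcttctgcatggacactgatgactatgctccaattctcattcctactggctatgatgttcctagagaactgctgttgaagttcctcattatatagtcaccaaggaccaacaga
Aebp1, chr11:5861616-5861865, plus strand: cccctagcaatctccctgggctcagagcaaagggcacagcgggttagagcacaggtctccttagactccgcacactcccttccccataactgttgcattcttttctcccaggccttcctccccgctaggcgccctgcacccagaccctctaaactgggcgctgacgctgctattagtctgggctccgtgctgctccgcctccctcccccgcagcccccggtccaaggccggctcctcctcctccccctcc
Wfdc17, chr11:83703806-83704055, plus strand: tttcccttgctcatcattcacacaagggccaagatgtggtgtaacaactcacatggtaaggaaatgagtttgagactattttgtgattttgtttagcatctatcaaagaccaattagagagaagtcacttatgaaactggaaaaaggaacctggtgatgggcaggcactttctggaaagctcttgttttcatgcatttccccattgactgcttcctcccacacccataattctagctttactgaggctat
The Cxcl3 window held GGGAATTTCC at 64 to 73 bases before the start and GGGCTCTTCC at 41 to 50 bases before it, and no 9-base match. A 10-base match on the other strand, at 63 to 72 bases before the start, overlaps the first of these. The H2-M2 window held GGGAATTCC at 171 to 179 bases before the start, where it also completes a 10-base match, and again at 157 to 165 bases before it. No motif matched in the Aebp1 or Wfdc17 window. Of all 32851 windows of 250 bases, 4.98% held the 9-base NF-kB form, 4.65% the 10-base form, 6.75% the AP-1 motif and 5.85% the STAT6 motif. A match is a string of letters and not evidence of binding.

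**Figure D1:**
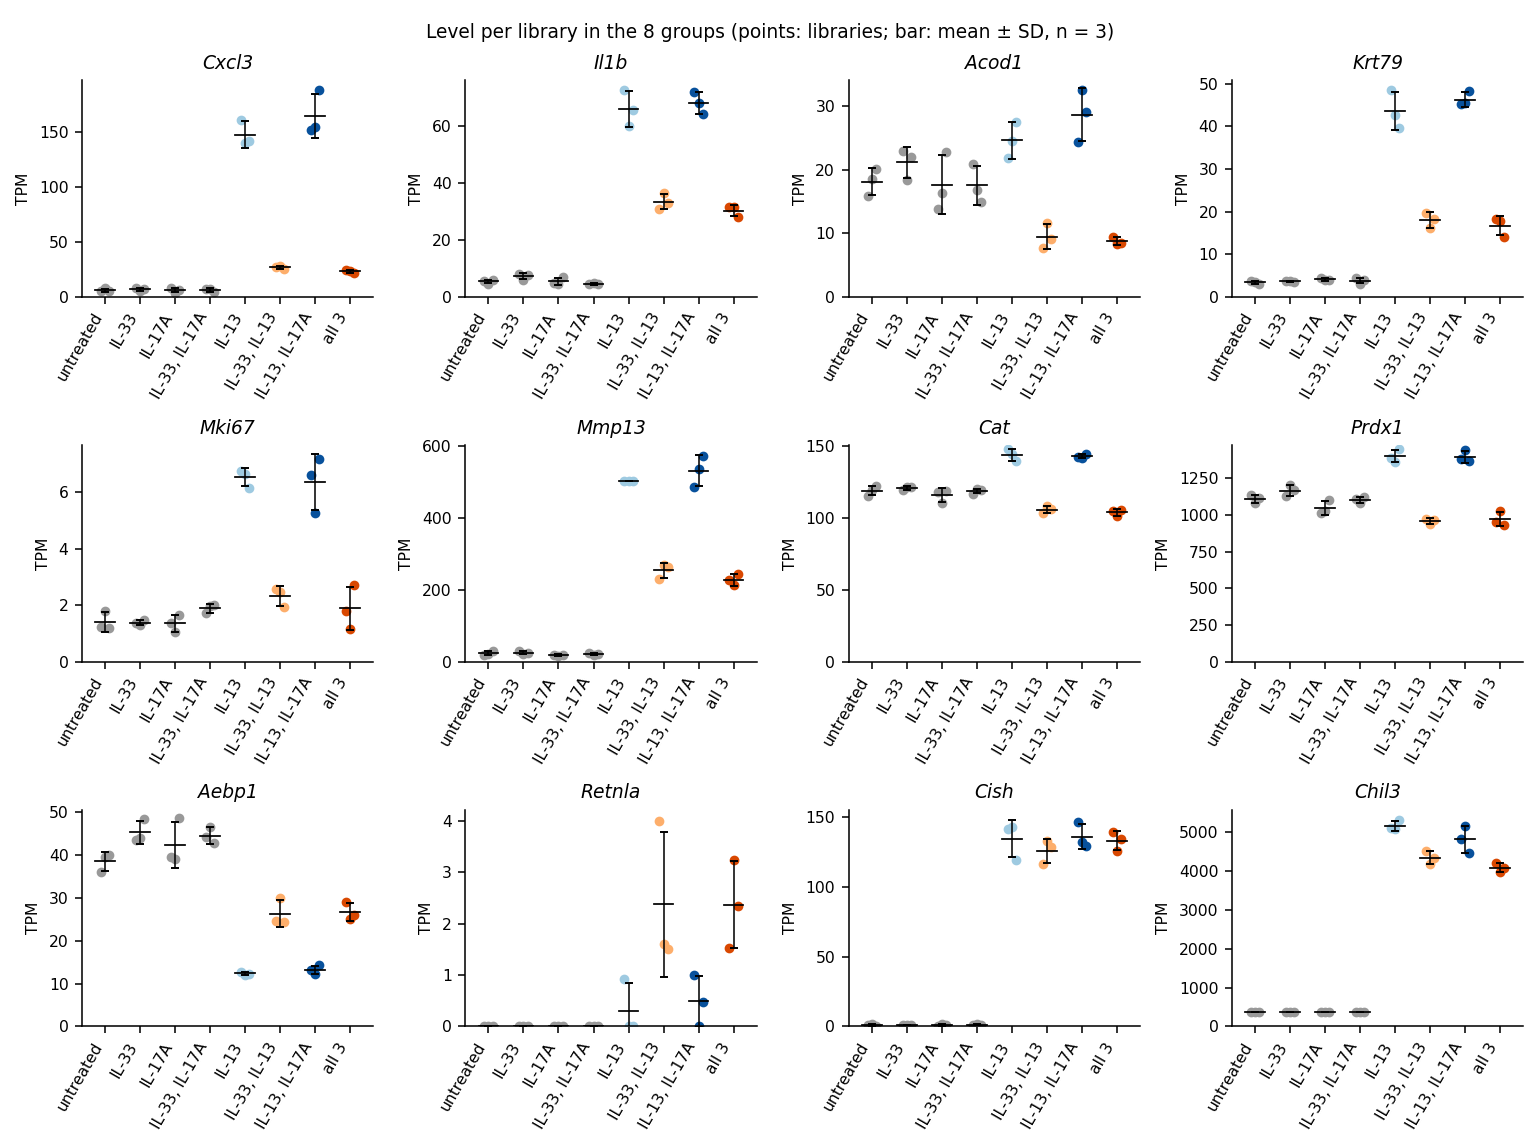
Level in TPM (vertical axis, linear from 0) of 12 genes in each of the 24 libraries, grouped by treatment. Points are libraries and the bar and whiskers are the mean and SD of 3. For Cxcl3, Il1b, Krt79 and Mmp13 the 4 groups without IL-13 sit low, IL-13 with or without IL-17A sits high, and the 2 groups that also received IL-33 sit between them.

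Inflammatory mediators other than CXC chemokines fell for some genes and not for others. Il1b, the gene of the inflammasome-processed cytokine IL-1 beta, read 72, 68.1 and 64.3 TPM with IL-13 plus IL-17A and 31.5, 31.3 and 27.9 TPM with IL-33 added, a log2 fold change of -1.15 ± 0.12 SE, adjusted p = 1.1e-05. Its untreated mean was 5.34 TPM. The 2 groups did not overlap. Il1rn, the natural antagonist of IL-1, read 189, 209.9 and 225 TPM and then 149, 159.8 and 169 TPM (log2 fold change -0.38 ± 0.087 SE, adjusted p = 0.016). Tnf read 135, 135 and 150.5 TPM and then 144, 142 and 131 TPM, with overlapping libraries and a log2 fold change of -0.01 ± 0.083 SE, adjusted p = 0.96. Il1b and Il1rn were the only 2 of 12 tested cytokine and antagonist genes to pass, and Il1b alone passed without replicate 2 of all 3 cytokines; Il1rn did not pass in 4 of the 6 fits that left out 1 library. An antisense gene, Il1bos, overlaps Il1b in the annotation.

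Of the 8 CC chemokine genes tested 2 fell, both macrophage chemokines of the CCR1 group. Ccl9 read 393, 394 and 357 TPM and then 219, 201 and 213 TPM (log2 fold change -0.85 ± 0.12 SE, adjusted p = 3.1e-04). Ccl6 read 829, 774 and 749 TPM and then 553, 521 and 486 TPM (log2 fold change -0.59 ± 0.069 SE, adjusted p = 3.6e-05). The libraries of the 2 groups were well separated for both, and the untreated means were lower than any of them, at 115 and 176 TPM. Ccl22, which attracts CCR4-bearing T cells, read 21.6, 13.5 and 18.8 TPM and then 15.8, 15.2 and 23.8 TPM and overlapped fully (adjusted p = 0.98). Ccl17 and Ccl24, at most 4.32 and 1.42 TPM in the 6 libraries, gave adjusted p-values of 0.94 and 0.95.

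Acod1, which makes the immunometabolite itaconate, was the gene with the third largest decrease among those named by level and separation. It read 24.4, 32.7 and 29.1 TPM with IL-13 plus IL-17A and 9.47, 8.29 and 8.51 TPM with all 3 cytokines (log2 fold change -1.60 ± 0.17 SE, adjusted p = 1.1e-05). The untreated mean was 18.2 TPM, so the level with IL-33 added lay below that of cells that received nothing, a comparison for which no test was planned. H2-M2, a non-classical class I gene, read 7.39, 13.3 and 7.35 TPM and then 2.17, 2.62 and 1.99 TPM (log2 fold change -1.62 ± 0.20 SE, adjusted p = 7.2e-05). Dusp4, a phosphatase that switches off MAP kinases, read 21.5, 25.2 and 29.7 TPM and then 10.2, 5.54 and 12.2 TPM, lowest in replicate 2 (log2 fold change -1.41 ± 0.22 SE, adjusted p = 5.6e-04). Dusp4 and Dusp1 were the 2 of 22 MAP kinase feedback and immediate early genes that fell; Dusp1 shares exon sequence with Ergic1 on the other strand, was lower by 0.25 and did not pass with median-ratio scaling, with voom, with a minimum of 5 TPM, with no filter or in 5 of the 6 fits that left out 1 library. That list had 9.09% of its tested genes called, against 3.55% of all genes, and without replicate 2 of all 3 cytokines 1 of the 22 fell.

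In the NF-kB list 2 of 18 tested genes passed, 11.1% against 3.55% of all genes. Nfkbia, the inhibitor that NF-kB itself induces, read 308, 307 and 297 TPM and then 246, 209.8 and 229 TPM (log2 fold change -0.41 ± 0.086 SE, adjusted p = 0.0078), and Tnip3, an inhibitor of NF-kB signalling, fell with it (log2 fold change -0.42 ± 0.094 SE, adjusted p = 0.013). Neither passed without replicate 2 of all 3 cytokines, and Tnip3 also did not pass without replicate 1 or 2 of IL-13 plus IL-17A. With median-ratio scaling 4 of the list fell, with voom or library weights 5, and with only the 2 groups compared in the fit 0. The list median was -0.22. Of 17 genes of the IL-33 receptor pathway 1 passed, Ikbkg (log2 fold change -0.31 ± 0.075 SE, adjusted p = 0.026), whose exons overlap those of G6pdx on the other strand, so its reads are uncertain. None passed without replicate 2 of all 3 cytokines, or without replicate 1, 2 or 3 of IL-13 plus IL-17A. Il1rl1, the ST2 chain of the receptor, was too low to be tested, at 0.159, 0.135 and 0.101 TPM and then 0.0818, 0.123 and 0.0751 TPM (25.9 reads over the 6 libraries). Il1rap, the shared second chain, read 2.53, 2.46 and 2.66 TPM and then 2.44, 2.08 and 2.57 TPM and did not pass (adjusted p = 0.68). Il33 itself was at 0 in 5 of the 6 libraries and at 0.0275 TPM in the other.

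Pattern recognition and chemoattractant receptors formed a further group with decreases, 6 lower and 1 higher of 23 tested, 30.4% against 3.55% of all genes. Without replicate 2 the counts were 5 and 1. Clec4n, which encodes Dectin-2, a receptor for fungal mannans, read 158, 172 and 163 TPM and then 101, 106 and 97.7 TPM (log2 fold change -0.69 ± 0.047 SE, adjusted p = 1.1e-07). Its neighbour in function Clec4d, another C-type lectin, read 159, 179 and 171 TPM and then 115, 127 and 111 TPM (log2 fold change -0.52 ± 0.048 SE, adjusted p = 2.4e-06). For both genes the highest library with IL-33 lay well below the lowest without it. The formyl peptide receptors fell further. Fpr1 read 21.3, 17.8 and 16.1 TPM and then 7.07, 6.27 and 5.52 TPM (log2 fold change -1.41 ± 0.18 SE, adjusted p = 7.7e-05), and Fpr2 read 57.4, 56.1 and 53.8 TPM and then 30.8, 29.4 and 27.8 TPM (log2 fold change -0.90 ± 0.11 SE, adjusted p = 7.2e-05). Fpr2 shares exon sequence with Fpr3 in the annotation, so its reads may belong to either. Clec7a (Dectin-1) and the integrin chain gene Itgb2 also fell, Fcgr2b, the inhibitory Fc receptor, rose, and the 16 genes that did not pass included Tlr2, Tlr4, Cd14 and Mrc1. With median-ratio scaling Clec7a did not pass.

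Genes of matrix and tissue remodelling went both ways, 5 lower and 2 higher of 16 tested, 43.8% against 3.55% of all genes. The counts were the same without replicate 2, and 4 lower and 3 higher with median-ratio scaling. Mmp13, a collagenase (ENSMUSG00000050578, chr9:7272514-7283331, plus strand of mm10), read 486, 535 and 571 TPM with IL-13 plus IL-17A and 227, 212 and 245 TPM with IL-33 added (log2 fold change -1.21 ± 0.13 SE, adjusted p = 1.7e-05), against an untreated mean of 23.3 TPM. Mmp8, the neutrophil collagenase, read 57.3, 64.2 and 66.2 TPM and then 23.3, 20.8 and 27.3 TPM (log2 fold change -1.36 ± 0.14 SE, adjusted p = 1.1e-05), which is close to its untreated mean of 23.9 TPM. The groups were far apart for both collagenase genes, with means 57.0% and 62.0% lower. Mmp19 read 437, 441 and 459.7 TPM and then 267, 222 and 267 TPM (log2 fold change -0.83 ± 0.066 SE, adjusted p = 2.9e-07), with Tmem198b overlapping it on the other strand. Mmp12, the macrophage elastase, changed far less, from 3094, 3161 and 3002 TPM to 2727, 2651 and 2762 TPM (log2 fold change -0.19 ± 0.035 SE, adjusted p = 0.0032), and did not pass with median-ratio scaling or with voom on recovered reads. Igf1 was the fifth gene that fell, and Spp1 (osteopontin) and Plau (urokinase) rose.

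The cell cycle list showed decreases in the most members of any list. Of 28 tested genes 19 fell (67.9%, against 2.4% of all genes) and none rose. All 28 had a negative log2 fold change, with a median of -0.55 against -0.05 over all genes. Without replicate 2 of all 3 cytokines 14 fell, and with only the 2 groups compared in the fit 3 fell. Mki67, which encodes the proliferation antigen Ki-67, read 6.62, 5.26 and 7.2 TPM with IL-13 plus IL-17A and 1.8, 1.16 and 2.7 TPM with IL-33 added (log2 fold change -1.37 ± 0.16 SE, adjusted p = 2.9e-05). Top2a, the topoisomerase of dividing cells, read 4.2, 3.7 and 4.54 TPM and then 1.53, 0.961 and 1.72 TPM (log2 fold change -1.11 ± 0.14 SE, adjusted p = 5.8e-05). Mcm5, a subunit of the replicative helicase, read 22.2, 18 and 20.0 TPM and then 11.1, 9.79 and 11.1 TPM (log2 fold change -0.85 ± 0.094 SE, adjusted p = 2.0e-05). In all 3 genes the groups were separate and the untreated means, 1.40, 0.820 and 6.63 TPM, lay near or below the levels with all 3 cytokines. Cdc20 (log2 fold change -1.48 ± 0.24 SE, adjusted p = 7.7e-04) and Ccna2 (log2 fold change -1.36 ± 0.22 SE, adjusted p = 8.3e-04) fell too, and both share exon sequence with a gene on the other strand (Elovl1 and Exosc9). The other genes that fell were Cdk1, Ccne2, Mcm2, Mcm3, Mcm4, Mcm6, Mcm7, Rrm1, Rrm2, Birc5, Aurkb, Plk1, Tk1 and Ube2c.

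Antioxidant and iron-handling genes fell in 13 of 19 tested (68.4%, against 2.4% of all genes), with none higher. All 19 log2 fold changes were below 0, with a median of -0.31. Without replicate 2 of all 3 cytokines 10 fell, with median-ratio scaling 12, and with only the 2 groups compared in the fit 5. Several belong to the set that the transcription factor NRF2 is known to induce. Cat, catalase, had one of the smallest p-values of the comparison: it read 143, 142 and 145 TPM in the 3 libraries with IL-13 plus IL-17A and 105, 101 and 106 TPM with all 3 cytokines (log2 fold change -0.46 ± 0.032 SE, adjusted p = 1.1e-07). Prdx1, a peroxiredoxin, read 1382, 1441 and 1365 TPM and then 953, 1026 and 932 TPM (log2 fold change -0.53 ± 0.039 SE, adjusted p = 2.0e-07). Srxn1, which repairs oxidised peroxiredoxins, read 998, 1027 and 1055 TPM and then 669.6, 594 and 658 TPM (log2 fold change -0.68 ± 0.054 SE, adjusted p = 2.9e-07). The spread within groups was small for all 3 and the libraries did not overlap. Their levels with IL-33 added, 104, 970.4 and 640.3 TPM on average, lay below the untreated means of 119, 1109.5 and 685 TPM, a difference that was not tested. The other 10 were Hmox1, Nqo1, Gclc, Gclm, Txnrd1, Slc7a11, Gsr, Sod2, Slc40a1 and Tfrc, and the 6 that did not pass were Fth1, Ftl1, Mt1, Mt2, Hp and Nfe2l2.

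Metabolic lists held smaller changes. In cholesterol efflux and lipid handling 7 genes fell and 2 rose of 24, 37.5% against 3.55% of all genes. But without replicate 2 of all 3 cytokines 1 fell and none rose, and with only the 2 groups compared in the fit 0 passed. Without replicate 1, 2 or 3 of IL-13 plus IL-17A few passed as well, with 1, 2 and 2 lower and 1, 1 and 0 higher. Cd36, a scavenger receptor for oxidised lipid, read 268, 273 and 260.0 TPM and then 233, 229.9 and 238 TPM (log2 fold change -0.19 ± 0.036 SE, adjusted p = 0.0031), and Scd1, the desaturase that makes oleate, read 60.7, 54.2 and 56.3 TPM and then 45.2, 31.7 and 45 TPM (log2 fold change -0.50 ± 0.11 SE, adjusted p = 0.013). Cd36 did not pass with median-ratio scaling. Scd1 did not pass without replicate 2 of all 3 cytokines or without replicate 1 of IL-13 plus IL-17A. Of 23 cholesterol synthesis genes 3 fell, Idi1 and Dhcr7 among them. None fell without replicate 2 of all 3 cytokines or without replicate 1 or 3 of IL-13 plus IL-17A. Of 19 hypoxia and glycolysis genes 4 fell, 21.1% against 3.55% of all genes. The decreases were small: Slc2a1, the glucose transporter GLUT1, by 0.28, Pkm by 0.23 and Pgam1 by 0.17 on the log2 scale, with Eno1 as the other. The count was 3 without replicate 2, 2 with median-ratio scaling and 0 with only the 2 groups compared in the fit.

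Of 15 tested genes of eicosanoid synthesis and related lipid mediators 3 fell and 1 rose, 26.7% against 3.55% of all genes. The counts were the same without replicate 2. Pla2g7, the phospholipase that degrades platelet-activating factor, had the smallest adjusted p of all 13215 genes. It read 44.5, 45.9 and 45.2 TPM and then 28.4, 26.1 and 29 TPM (log2 fold change -0.68 ± 0.043 SE, adjusted p = 7.1e-08), with very little spread in either group; an antisense gene overlaps it. Alox5ap, the partner of 5-lipoxygenase in leukotriene synthesis, read 42.5, 42.3 and 41.3 TPM and then 29.1, 33.5 and 31 TPM (log2 fold change -0.42 ± 0.053 SE, adjusted p = 6.7e-05), and Tbxas1, thromboxane synthase, was the other gene that fell. Hpgds, which makes prostaglandin D2, rose from 10.4, 10.1 and 9.74 TPM to 12.5, 11.7 and 13 TPM (log2 fold change 0.28 ± 0.054 SE, adjusted p = 0.0055).

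**Figure D2:**
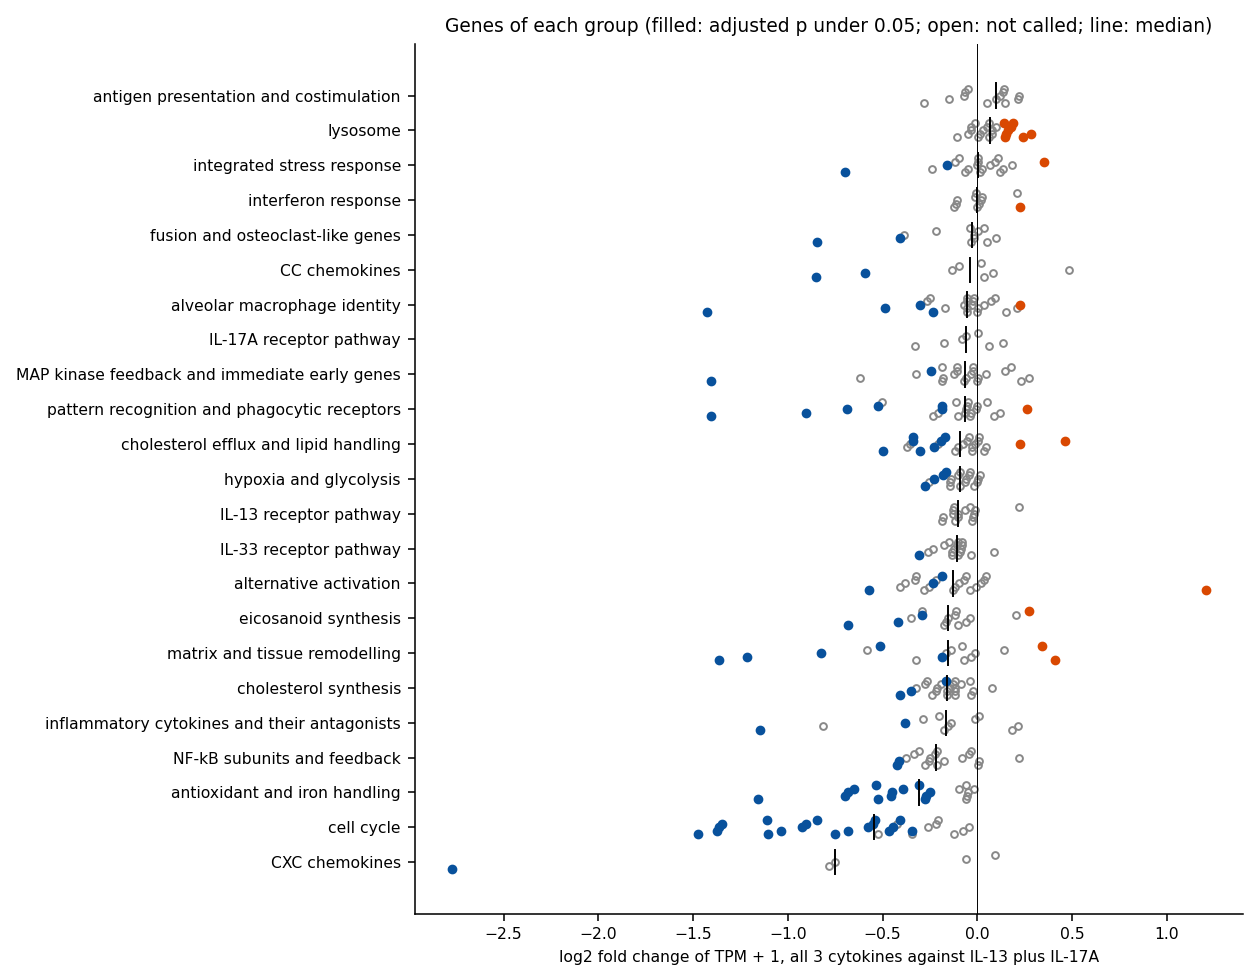
Log2 fold change of TPM + 1 (horizontal axis) of every tested member of the 23 gene lists, all 3 cytokines against IL-13 plus IL-17A. Filled points passed an adjusted p of 0.05, orange higher and blue lower, open points did not, and the black line is the list median. The cell cycle and antioxidant lists lie wholly below 0 with 19 and 13 genes that passed, and the lysosome list has 8 genes that rose.

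Cish and Socs1, the SOCS family genes that IL-13 signalling induces, did not pass. Cish, a feedback inhibitor that STAT proteins induce, read 146, 133 and 129 TPM with IL-13 plus IL-17A and 139.9, 126 and 135 TPM with IL-33 added, against an untreated mean of 0.934 TPM. The libraries overlapped, and the 95% interval of the log2 fold change ran from -0.45 to 0.39. Socs1 read 26.5, 22.4 and 23.5 TPM and then 24.6, 36.4 and 25 TPM and overlapped as well (adjusted p = 0.67). None of the 15 tested genes of the IL-13 receptor pathway and none of the 7 of the IL-17A receptor pathway passed; with 3.55% of all genes called, lists of these sizes at the background share would hold less than 1 call. Adjusted p was 0.62 for Il4ra, 0.66 for Il13ra1, 0.91 for Il2rg and 0.8 for Il17ra, and Il17rc, at or below 0.925 TPM, was not tested. The smallest p of the 2 lists was that of Ptpn1 (log2 fold change -0.18 ± 0.083 SE, adjusted p = 0.31) and of Traf3 (log2 fold change -0.33 ± 0.13 SE, adjusted p = 0.24).

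Of 21 alternative activation genes 3 fell and 1 rose (3 fell and none rose without replicate 2). Chil3, the chitinase-like protein Ym1 and one of the most induced genes of these cells, read 4825, 5146 and 4464 TPM with IL-13 plus IL-17A and 4192, 3964 and 4081 TPM with all 3 cytokines (log2 fold change -0.24 ± 0.037 SE, adjusted p = 7.4e-04). That is 15.2% less, from a level far above the untreated mean of 382 TPM, and it did not pass with median-ratio scaling. Reads of Chil3 and its close copy Chil4 may be assigned to either gene; Chil4 read 1.74, 1.83 and 1.35 TPM and then 0.651, 0.981 and 0.697 TPM (log2 fold change -0.57 ± 0.13 SE, adjusted p = 0.014). Retnla (RELM alpha) went the other way, from 0.996, 0 and 0.472 TPM to 1.53, 3.24 and 2.35 TPM (log2 fold change 1.20 ± 0.29 SE, adjusted p = 0.022), on 18.0 reads over the 6 libraries, and was at 0 in untreated cells. Retnla and Chil4 each did not pass in 3 of the 6 fits that left out 1 library, and neither passed with a pseudocount of 0.1. Arg1, at 0.576 to 1.5 TPM in the 6 libraries, did not pass (adjusted p = 0.29).

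Among alveolar macrophage identity genes 4 fell and 1 rose of 23, 21.7% against 3.55% of all genes (3 fell and none rose without replicate 2). The largest decrease was that of Krt79, a keratin gene of these cells, which read 45.2, 45.5 and 48.3 TPM and then 18.1, 17.8 and 14 TPM (log2 fold change -1.43 ± 0.11 SE, adjusted p = 2.2e-07), against an untreated mean of 3.37 TPM. Ear2, one of a family of near-identical ribonuclease genes and therefore uncertain, read 4655, 4036 and 4217 TPM and then 2818, 3449 and 2964 TPM (log2 fold change -0.49 ± 0.096 SE, adjusted p = 0.0055). Chil3 and Lpl were the other genes that fell, and Fabp5 rose (log2 fold change 0.23 ± 0.053 SE, adjusted p = 0.02). Ear2 and Fabp5 did not pass with median-ratio scaling. Fabp5 also did not pass without replicate 2 of all 3 cytokines or without replicate 3 of IL-13 plus IL-17A. The 2 membrane proteins DC-STAMP and OC-STAMP, which macrophages need for fusion into giant cells, both fell at the RNA level, the 2 of 12 tested genes of the fusion list that did. Dcstamp read 12.2, 12 and 11.6 TPM and then 5.34, 6.06 and 7.29 TPM (log2 fold change -0.85 ± 0.12 SE, adjusted p = 1.6e-04), and Ocstamp read 32.9, 28.9 and 32.9 TPM and then 21.3, 25.1 and 24.2 TPM (log2 fold change -0.41 ± 0.078 SE, adjusted p = 0.0041). Neither passed with only the 2 groups compared in the fit, and Ocstamp did not pass with a pseudocount of 0.1.

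The genes that rose did so by less. The list with the most increases was that of lysosomal genes, 8 higher and none lower of 22 (7 without replicate 2), each by under 0.3 on the log2 scale. The 8 were 36.4% of the list, against 1.15% of all genes that rose. With only the 2 groups compared in the fit, 0 of the 22 passed. Hexa, the alpha subunit of beta-hexosaminidase, read 343, 344 and 339 TPM and then 388, 387 and 384 TPM (log2 fold change 0.18 ± 0.020 SE, adjusted p = 3.1e-05). Lamp1, a main glycoprotein of the lysosomal membrane, read 1250.0, 1242 and 1222 TPM and then 1389, 1372 and 1337 TPM (log2 fold change 0.14 ± 0.020 SE, adjusted p = 2.3e-04). Ctsa, cathepsin A, read 2638, 2571 and 2608 TPM and then 2888, 2928 and 2878 TPM (log2 fold change 0.15 ± 0.023 SE, adjusted p = 4.5e-04). In each the 3 libraries with IL-33 lay above the 3 without it, between the latter and the untreated means of 477, 1569 and 3188 TPM. Gaa, Ctsd, Cd63 and Mcoln1 were also among the 8, and the list median was 0.07. Hexa, Lamp1 and Ctsa each share exon sequence with a gene on the other strand.

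Aebp1, which encodes the carboxypeptidase-like protein ACLP and a transcriptional repressor, had the smallest adjusted p of the 10 largest increases (ENSMUSG00000020473, chr11:5861947-5872088, plus strand of mm10). It read 13.1, 12.2 and 14.2 TPM with IL-13 plus IL-17A and 29.1, 25.2 and 26 TPM with all 3 cytokines, a 2.03-fold difference (log2 fold change 0.97 ± 0.088 SE, adjusted p = 1.9e-06), against an untreated mean of 38.5 TPM. Ccn3, a matricellular protein, read 2.28, 5.59 and 4.01 TPM and then 9.73, 7.52 and 8.18 TPM (log2 fold change 0.99 ± 0.25 SE, adjusted p = 0.036), but it did not pass in 5 of the 6 fits that left out 1 library. Wfdc17, a small secreted whey acidic protein, read 14.2, 18.3 and 16.6 TPM and then 24.5, 30.3 and 27.6 TPM (log2 fold change 0.71 ± 0.13 SE, adjusted p = 0.0026). Tnni2 rose from 42, 47 and 42.7 TPM to 76.3, 72.3 and 67.6 TPM (log2 fold change 0.70 ± 0.079 SE, adjusted p = 2.1e-05), still well under its untreated mean of 190.5 TPM. Hpse, heparanase, rose from 6.79, 6.95 and 7.56 TPM to 11, 10.4 and 10.3 TPM (log2 fold change 0.51 ± 0.057 SE, adjusted p = 2.0e-05). The other genes among the 10 largest increases were Plbd1 (0.69), Hebp2 (0.64), Lyl1 (0.64, overlapped by Nfix), Rbp4 (0.59) and Hsd17b1 (0.58) on the log2 scale; Hsd17b1 did not pass in 3 of the 6 fits that left out 1 library. Rbp4, the retinol carrier, was the one of these 10 whose level with IL-13 alone (31.1 TPM) exceeded the untreated mean (8.03 TPM) by a change that passed the test.

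The remaining lists held few changes. Bst2 (tetherin) was the 1 of 11 interferon response genes to pass, from 234, 234 and 232 TPM to 266, 282 and 272 TPM. None of 13 antigen presentation genes passed; the smallest p was that of B2m (log2 fold change 0.14 ± 0.045 SE, adjusted p = 0.11). Ddit3 (CHOP) was higher and Slc7a11 and Slc3a2 were lower among 19 integrated stress response genes (2 higher and 1 lower with median-ratio scaling); Slc7a11, the cystine transporter subunit, also stands on the antioxidant list and read 11.9, 11.4 and 11.7 TPM and then 7.85, 5.09 and 7.87 TPM. Ddit3 overlaps Mars on the other strand and did not pass without replicate 2 of all 3 cytokines or without replicate 3 of IL-13 plus IL-17A.

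Markers of other cell types were examined because a lung preparation can hold them. Fibroblast (1 tested), epithelial (6), endothelial (1), lymphocyte (1) and dendritic cell (2) markers gave no gene that passed. Sums over each list's TPM are given only to compare libraries. The summed fibroblast markers were 3.17 to 3.68 TPM with IL-13 plus IL-17A and 2.81 to 4.69 TPM with all 3 cytokines, with Dcn at 0 in all 6 libraries. Epithelial markers summed to 62.7 to 68.5 TPM and then 55.5 to 63.0 TPM; among them Cdh1 is one that these cells raise with IL-13 (3.54 TPM untreated, 38.1 TPM with IL-13). Granulocyte and mast cell markers summed to 84.8 to 94.9 TPM and then 95 to 128 TPM. S100a8, which did not pass, contributed most to that sum, with means of 85.7 TPM and then 110 TPM. Only 4 of the 18 listed granulocyte and mast cell markers were in the data. Cxcr2 passed as higher (1.44, 2.14 and 0.497 TPM and then 2.96, 2.8 and 2.84 TPM, log2 fold change 0.78 ± 0.20 SE, adjusted p = 0.041) but not in 5 of the 6 fits that left out 1 library. Monocyte and interstitial macrophage markers summed to 175 to 194 TPM and then 139 to 171 TPM. Csf1r, the receptor for the growth factor M-CSF, contributed most to that sum, with means of 117 TPM and then 89.7 TPM. It fell (log2 fold change -0.39 ± 0.067 SE, adjusted p = 0.0017). Of the 6 tested members 3 had a positive and 3 a negative log2 fold change. The part of such cells in the changes above was not tested.

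The same addition was then read in cells that did not receive the same partners. IL-33 was also added to IL-13 alone, to IL-17A alone and to otherwise untreated cells. The group means of these 3 comparisons come from 18 libraries none of which belongs to the comparison above. Their tests use the same fit of all 24 libraries, so the standard errors rest partly on the 6 libraries compared above. Added to IL-13, IL-33 changed 340 genes (2.57%), 110 higher and 230 lower. Added to IL-17A, 1 gene passed (0.00757%), Brms1 at -0.21, while 626 had an unadjusted p under 0.05; voom on recovered reads gave 0. Added to untreated cells, no gene passed in limma-trend or in voom on recovered reads, the smallest adjusted p was 0.69, and 484 genes had an unadjusted p under 0.05. Brms1 read 60.9 to 65.3 TPM and 63.7 to 66.5 TPM in the 2 groups with IL-13 plus IL-17A and did not pass there (adjusted p = 0.58).

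Nearly all of the 469 genes had a log2 fold change of the same sign with IL-13 alone as the partner. Of the 152 that rose, 145 (95.4%) had a positive log2 fold change and 75 (49.3%) passed as higher when IL-33 was added to IL-13; of the 317 that fell, 313 (98.7%) were negative and 171 (53.9%) passed as lower. None passed in the opposite direction, and the background was 0.832% of all genes higher and 1.74% lower. The calls in the 2 comparisons are not independent, because 1 fit gave the variance for both. The 469 genes also had smaller standard errors, with a median of 0.067 against 0.10 over all tested genes. Across these 469 genes the 2 sets of log2 fold changes had a Pearson r of 0.86, which describes genes chosen in 1 of the 2 comparisons and measured on 1 scale; over all 13215 tested genes r was 0.24, and over tested genes with a mean of at least 10 TPM 0.49. Cxcl3 stood at 147 TPM with IL-13 and 26.5 TPM with IL-33 and IL-13 (log2 fold change -2.43, adjusted p = 8.6e-07). The median was -0.32 for the lower and 0.17 for the higher genes there, against -0.41 and 0.25 beside IL-13 plus IL-17A. Il1b fell by 0.96, Mki67 by 1.18, Cat by 0.44 and Pla2g7 by 0.72 there, and Aebp1 rose by 1.02, close to the values beside IL-13 plus IL-17A. Other named increases were smaller there, Ccn3 at 0.10 against 0.99, Hebp2 at 0.05 against 0.64 and Wfdc17 at 0.28 against 0.71. These genes, like the 469 as a whole, were picked by their change in the first comparison. Such a choice by itself favours smaller values elsewhere. The difference between the 2 comparisons did not pass for any of these 3 genes (limma-trend interaction term, adjusted p = 0.90 for each).

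Without IL-13, these genes had small median changes, and more of them than not had the opposite sign. The median log2 fold change of the 317 lower genes was 0.0062 when IL-33 was added to IL-17A and 0.031 when it was added to untreated cells, and that of the 152 higher genes was -0.028 and -0.029. Of the lower genes 46.7% and 34.1% were negative there, against 50.004% and 52.3% of all tested genes, and of the higher genes 27.0% and 28.9% were positive, against 49.9% and 47.7%. The Pearson r with the changes beside IL-13 plus IL-17A was -0.18 and -0.39 over the 469 genes and -0.04 and -0.02 over all tested genes. Cxcl3 was at 5.92 TPM with IL-17A and 5.81 TPM with IL-33 and IL-17A, Mmp13 at 18.2 and 21.1 TPM, and Cat at 116 and 119 TPM.

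**Figure D3:**
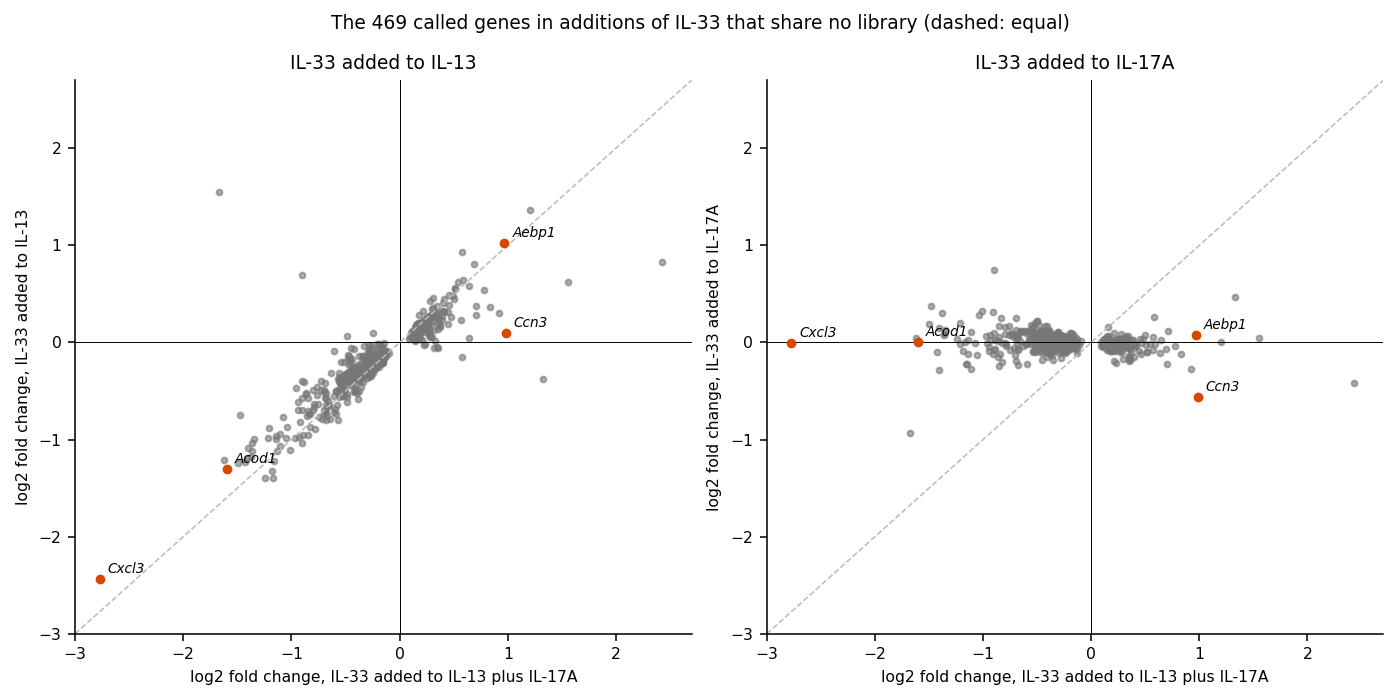
The 469 genes that passed, with their log2 fold change when IL-33 was added to IL-13 plus IL-17A on the horizontal axes and when it was added to IL-13 (left) or to IL-17A (right) on the vertical axes. The axes share no library, each point is a gene and the dashed line marks equal values. The left cloud follows the line, with Cxcl3 at -2.77 and -2.43, and the right cloud lies along 0.

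Both differences between these effects were tested as interaction terms in the same fit. With against without IL-17A beside IL-13, no gene passed (smallest adjusted p = 0.23, 480 genes at an unadjusted p under 0.05; library weights gave 2 and voom on recovered reads 0). For 457 of the 469 genes (97.4%) the 95% interval of that difference lay within 2-fold in both directions, and for 396 (84.4%) within 1.5-fold. Over all tested genes these shares were 80.6% and 66.7%, and over tested genes with a mean of at least 10 TPM 96.0% and 86.6%, so the 469 genes were near the genes of that level; a 2-fold limit is also wider than their median absolute log2 fold change of 0.35. With against without IL-13 beside IL-17A, 200 genes differed (1.51%), 83 with a higher (0.628%) and 117 with a lower effect (0.885%) beside IL-13. They included Cxcl3 (-2.76 ± 0.29 SE), Mki67 (-1.68 ± 0.22 SE) and Cdc20 (-1.85 ± 0.33 SE) among the lower, and Ccn3 (1.55 ± 0.36 SE), Tnni2 (0.93 ± 0.11 SE) and Aebp1 (0.89 ± 0.12 SE) among the higher. Mki67 stood at 1.35 TPM with IL-17A and 1.89 TPM with IL-33 and IL-17A, and Cdc20 at 1.05 and 1.49 TPM. Such levels leave little room for a decrease on log2(TPM + 1). How far this sets the difference was not tested. Of the 4 libraries whose title number is out of sequence, 1 is among the cells given all 3 cytokines and 2 are among those given IL-33 and IL-17A. Leaving them out leaves 1 library with IL-33 and IL-17A, so no count is given for that fit. Leaving out any 1 of the 12 libraries of this contrast gave 105 to 237 genes. Of the lists, 13 of 28 cell cycle genes, 11 of 19 antioxidant genes, 5 of 16 matrix genes and 5 of 23 receptor genes had a lower effect beside IL-13. This contrast includes the 6 libraries of the first comparison, where these lists already held decreases. The list medians beside IL-17A were 0.014, 0.066, 0.009 and -0.024. These counts therefore largely repeat the first comparison and are not a separate result.

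Finally the 469 genes were set beside the response to IL-13 alone against untreated cells, a comparison whose group means also use none of the 6 libraries. It shares the fit of all 24 libraries and was added after the data had been seen. In that comparison 29.8% of all tested genes passed, 14.1% higher and 15.7% lower. Of the 317 genes that IL-33 lowered, 221 (69.7%) had risen with IL-13 and 29 (9.15%) had fallen. Of the 152 genes that IL-33 raised, 113 (74.3%) had fallen with IL-13 and 16 (10.5%) had risen. Mmp13 rose by 4.39 with IL-13 on the log2 scale and Cxcl3 by 4.46, and Tnni2 and Aebp1 fell by 1.84 and 1.56. Genes that IL-33 moved further along the direction of IL-13 were fewer; Rbp4 rose in both comparisons, and Clec4d, at 278 TPM untreated, fell by 0.76 with IL-13 and by 0.52 more when IL-33 was added to IL-13 plus IL-17A.

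**Figure D4:**
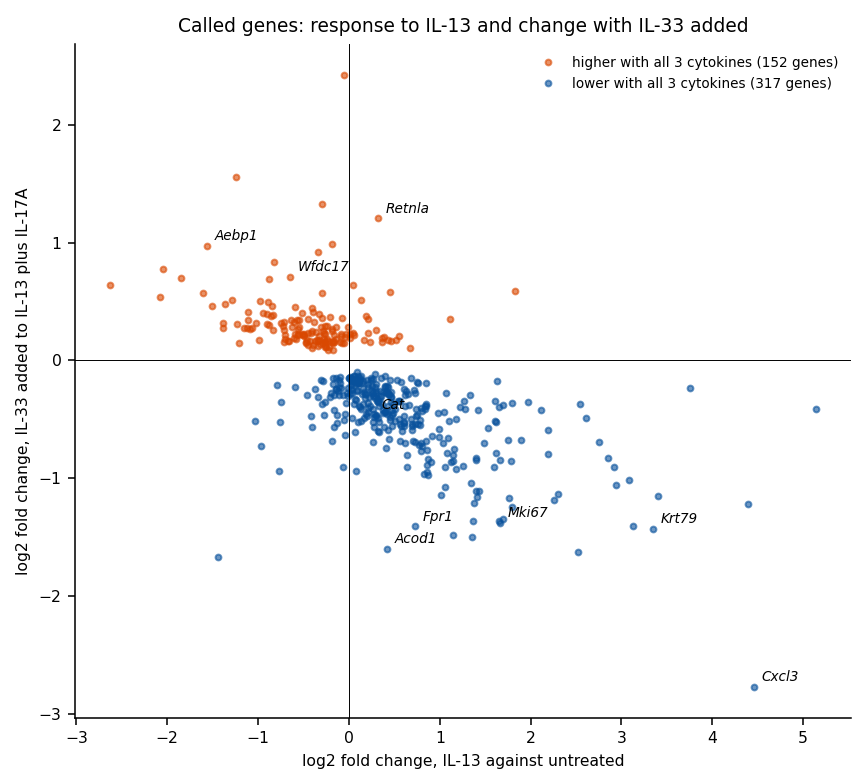
Each of the 469 genes by its log2 fold change with IL-13 against untreated cells (horizontal axis) and with IL-33 added to IL-13 plus IL-17A (vertical axis). Orange points are the 152 genes that rose with IL-33 and blue points the 317 that fell; the axes share no library. Most orange points lie to the left of 0 and most blue points to the right.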

How the data were processed

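RNA of 24 libraries was sequenced on a NovaSeq6000, per the labels' protocols. The authors deposited 1 table of TPM values per library, with 17017 genes. STAR and the build mm10 are named in the submitters' processing notes. Not given in the sources used here are its version, the counter and whether strand was used, so reads of overlapping genes cannot be told apart. The deposited length equalled the gene span in all 17017 genes, which makes TPM of long genes low. TPM times that length gave whole reads, within 0.05, in 90.2% to 91.7% of low values (20 reads at most), where chance gives 10%, and these recovered reads give the depths. The median tested gene had 264.6 reads per library. Library pairs within a group all differed by more than sampling noise (index of dispersion 1.43 to 21.7 over genes with at least 20 reads), and each library counted as 1 replicate. The largest values, 16.5 and 21.7, were those of the pairs with replicate 2 of all 3 cytokines. A spread estimated over all groups can therefore understate that of this group.

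Groups come from the treatment label. The main test was limma-trend (limma 3.58.1, R 4.3.3) on log2(TPM + 1) with 8 group means, 24 libraries and 16 residual degrees of freedom; fold changes on this scale understate those of low genes. A gene was kept if 3 libraries or more reached 1 TPM and called at an adjusted p under 0.05. Differences of IL-33 effects were interaction contrasts of that fit. Intervals are at 95%. Coordinates are 1-based. The script was tested on simulated data. The alternatives were a pseudocount of 0.1, no filter or a minimum of 5 TPM, median-ratio scaling, library weights (gene-by-gene estimate, because the REML estimate did not converge), voom on recovered reads, only the groups compared, and libraries left out.

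Named genes are the 10 largest changes in each direction among genes that passed, had 5 TPM or more in the higher group, separated libraries and a symbol that is not provisional, up to 3 called genes of each list (if none, that with the smallest p), receptors of the 3 cytokines, standard markers, and the 3 largest interaction calls in each direction. Members and lists were chosen with earlier results of these data known, so a list is described by counts and a median and has no test. Some list members are counted but not reported by name here.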

Additional observations from a re-analysis of the deposited data

Results flagged for a closer look

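The effect of IL-33 differed with against without IL-13 beside IL-17A, by the interaction term of the limma-trend fit, for 200 genes. The named genes among them follow, each with its log2 effect beside IL-13 plus IL-17A minus that beside IL-17A alone. The first of these effects is the one described above, so the differences are not independent of it. With IL-17A alone some of these genes stood low, such as H2-M2 at 1.37 TPM and Ccna2 at 1.15 TPM. Little room for a decrease was left there on log2(TPM + 1).

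The difference was negative, an effect lower beside IL-13, in the chemokine, cytokine and receptor genes Cxcl3 -2.76, Il1b -0.93, Fpr1 -1.12, Fpr2 -0.78, Clec4n -0.69, Clec4d -0.54, Clec7a -0.15, H2-M2 -1.67, Acod1 -1.61 and Dusp4 -1.56. It was negative in the matrix and fusion genes Mmp8 -1.46, Mmp13 -1.41, Mmp19 -0.82, Mmp12 -0.29, Dcstamp -0.73 and Ocstamp -0.48, and in the cell cycle genes Mki67 -1.68, Top2a -1.21, Ccna2 -1.44, Cdc20 -1.85 and Mcm5 -0.91. Among antioxidant, stress and metabolic genes the values were Cat -0.49, Prdx1 -0.60, Srxn1 -0.75, Slc7a11 -0.95, Cd36 -0.29 and Slc2a1 -0.29. Among lipid mediator genes and genes of macrophage identity or activation they were Pla2g7 -0.73, Alox5ap -0.39, Krt79 -1.33, Chil3 -0.23 and Csf1r -0.39.

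The difference was positive, an effect higher beside IL-13, in Ccn3 1.55, Aebp1 0.89, Tnni2 0.93, Plbd1 0.75, Lyl1 0.74, Rbp4 0.61, Hpse 0.62, Bst2 0.26, Ddit3 0.55 and Hexa 0.19. Ccn3 differed between the 2 comparisons partly by a lower value with IL-33 beside IL-17A, 4.97 TPM against 7.69 TPM without it, a change that did not pass the test on its own (adjusted p = 1.0). Cdc20, Ccna2, Lyl1, Ddit3, Fpr2, Mmp19, Mmp12, Hexa, Slc2a1, Top2a, Alox5ap, Pla2g7, Il1b and Csf1r share exon sequence with another annotated gene, so their reads may be mixed.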

How the results depend on the processing

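No paired analysis was possible because the labels give no replicate number that runs across groups. Title numbers 1 to 12 are those of the groups without IL-33, and the numbers from 13 on are those of the groups with it. Anything tied to this order cannot be told apart from IL-33. None of the 469 genes changed sign in an alternative that tested it. For IL-33 added to IL-13 plus IL-17A, 49 genes passed with only the 2 groups compared in the fit (41 of them among the 469) and 1122 with library weights; leaving out 1 library gave 286 to 666 genes, and without replicate 2 of all 3 cytokines 275 of the 469 still passed. Another pseudocount, filter, scaling or test, and leaving out the libraries numbered 30, 31, 32 and 36, gave 431 to 631. For IL-33 added to IL-13, 144 passed with only the groups compared, 814 with library weights and 212 to 261 without 1 library. For IL-33 added to IL-17A, 0 passed with a minimum of 5 TPM, with median-ratio scaling and with voom, 4 with library weights, 5 with only the groups compared and 0 to 1 without 1 library. For IL-33 added to untreated cells, 3 passed with only the groups compared. For the difference with against without IL-17A, library weights gave 2. For that with against without IL-13, library weights gave 406, only the groups compared 65, the fit without libraries numbered 30, 31, 32 and 36 gave 55, and leaving out 1 library 105 to 237. Of the 67 named genes that passed, 47 did not pass with only the groups compared, 15 without replicate 2 of all 3 cytokines, 10 with median-ratio scaling and 5 with voom; the causes were not tested, beyond the fewer libraries that some of these fits hold. Depth limits the low genes: Retnla, Ccl17, Ccl24, Arg1 and Il1rl1 rest on few reads.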

Other observations

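Several genes outside the lists passed in the comparison of all 3 cytokines with IL-13 plus IL-17A, and those named here were chosen after their values had been seen. Ptgr1, which reduces prostaglandin and aldehyde double bonds, read 66.9, 71.1 and 69.1 TPM with IL-13 plus IL-17A and 43.6, 45.4 and 37.9 TPM with IL-33 added (log2 fold change -0.70 ± 0.055 SE, limma adjusted p = 2.9e-07), against an untreated mean of 44.9 TPM. Prdx6, a peroxiredoxin with phospholipase activity, and Akr1b8, an aldo-keto reductase, fell by 0.56 and 0.60 on the log2 scale, to 66.9 and 23.2 TPM on average, where untreated cells held 73.6 and 24.3 TPM. Gsta2, a glutathione transferase, read 4.42, 4.43 and 5.58 TPM and then 1.90, 1.61 and 1.2 TPM. Pgd and Taldo1, enzymes of the pentose phosphate pathway, fell by 0.30 and 0.26. In these genes every library with IL-33 lay below every library without it, as in every gene called lower.

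Car2, carbonic anhydrase II, read 33.2, 36.5 and 37.2 TPM and then 16.4, 16 and 17.4 TPM, with an untreated mean of 3.97 TPM. Procr, the endothelial protein C receptor, and Sdc1, syndecan-1, fell by 0.72 and 0.97 to means of 63.2 and 6.57 TPM, near their untreated means of 63.8 and 7.74 TPM. Further lysosomal enzymes rose beside those of the list: Pld3, a lysosomal exonuclease, from 836, 817 and 832.5 TPM to 989.8, 995.5 and 971.8 TPM, and Lgmn, the asparagine-specific protease legumain, from 129, 127 and 127 TPM to 156, 153.5 and 160.8 TPM. Naaa, which hydrolyses N-acylethanolamines, rose by 0.34. Hcar2, a receptor for nicotinic acid and ketone bodies, rose by 0.51 to 594 TPM, above its untreated mean of 381 TPM, so it is one of the genes whose level with all 3 cytokines lay farther from untreated cells than that with IL-13 plus IL-17A.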
